A study of Arabidopsis thaliana with 3 samples.

Results

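The transcripts described here encode 9 members of the ZIP family of metal transporters of Arabidopsis thaliana: ZIP1, ZIP2, ZIP3, ZIP4, ZIP5, ZIP8, ZIP9, ZIP10 and ZIP11. They were picked by locus code, as ZIP genes outside the iron uptake set that is led by IRT1, and with their ratios between mutant and wild type already known. For that reason those ratios are given as a description, and nothing is read from a test of them. The 9 genes are among 25665 loci with a probe on the arrays. A single probe of 60 bases represented each gene. Of the 9 genes, 8 were among the 20484 loci bright enough to be tested, and ZIP10 was not.

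ZIP proteins move divalent metal ions such as zinc, manganese, iron and copper into the cytosol, either across the plasma membrane or out of compartments such as the vacuole. In Arabidopsis several ZIP genes are switched on when zinc is scarce, through the transcription factors bZIP19 and bZIP23, while IRT1 takes up iron in the root epidermis and is switched on when iron is scarce. Export pumps, vacuolar carriers, manganese transporters and the chelator nicotianamine then set where the metal goes.

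Whole seedlings of the mutant tdt-1 were compared with whole wild-type seedlings. Both were 3 days old and had been raised on MS agar, a standard mineral medium, under continuous light at 22 °C, and no treatment was applied to either. The labels give neither the affected gene nor the parental strain, and the reference table lists TDT under more than 1 locus, so no gene is assigned to the mutation here. On each of 3 arrays tdt-1 RNA and wild-type RNA were hybridised together in different dyes, and the series' design text calls the 3 arrays biological replicates.

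The tdt-1 RNA was in Cy5 on replicates 1 and 2 and in the other dye, Cy3, on replicate 3. Replicate 3 also had another array layout, another scan day, a finer scan (5 against 10 microns per pixel) and another version of the scanner software. These and dye orientation cannot be told apart. Over all tested loci the log2 ratios of replicates 1 and 2 correlated at r = 0.940, against r = 0.527 and r = 0.573 with replicate 3. The share of spots well above background was 65.0% to 69.2% for tdt-1 and 69.3% to 79.6% for wild type. These correlations are across genes, which are not independent replicates. The small number of arrays limits the precision of every value.

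Levels below are log2 normalised intensities of 1 genotype on 1 array. Ratios are the log2 of the tdt-1 signal divided by the wild-type signal within an array, given as the mean ± SD over n = 3 arrays. A probe's level was never set against that of another probe. Probes were assigned to genes by the array's locus codes. Set against the reference table's TAIR10.1 genes, the deposited positions of 5 of the 9 probes fell within the named gene, and those of ZIP2, ZIP3, ZIP8 and ZIP11 fell outside it. The deposited files name no build, and whether these 4 probes match the genes in TAIR10.1 was not tested. Since each RNA came from whole seedlings, fewer cells of a type and less RNA per cell cannot be told apart.

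ZIP8 (AT5G45105) stood furthest from 0 among the 9 genes. The reference table classes it as a transcribed pseudogene and the other 8 as protein coding, while the array's own annotation calls it a putative metal transporter. Its probe lies at chr5:18240758-18240817 on the minus strand. The level of ZIP8 was 8.14, 7.83 and 5.50 in tdt-1 on replicates 1, 2 and 3, against 10.88, 10.98 and 8.49 in wild type. tdt-1 was the lower genotype on every array. Both genotypes were dimmest on replicate 3, where the wild-type level of 8.49 was close to the tdt-1 level of 8.14 on replicate 1. The genotypes did not overlap, and within each array the gap was wider than between these values. The ratios were −2.74, −3.15 and −2.99, with a mean of −2.96 ± 0.21. The replicate 3 ratio was taken against a tdt-1 spot that was not well above background.

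The tdt-1 channel of ZIP8 was dim. Before correction, the mean spot signal of ZIP8 was 115, 113 and 41.2 in tdt-1 on replicates 1, 2 and 3, where the local background was 45, 49 and 33. In wild type it was 813, 986 and 703, over a local background of 65, 60 and 50.5. The software called the tdt-1 spot bright enough, that is well above background, on 2 of the 3 arrays, and the wild-type spot on all 3. The scanner software's own log ratio, turned to log2, was −3.70, −4.07 and −7.05 for ZIP8, with a mean of −4.94 ± 1.84, against −2.76 when each array was only centred on its median. ZIP8 was lower in tdt-1 under all 14 alternatives that measured it, and its mean ratio lay between these values. The corresponding fold, wild type over tdt-1, was 6.76 with median centring, 7.78 with the loess ratios used here and 30.7 with the scanner's, so the size of the difference is not settled.

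ZIP2 (AT5G59520) was the other member with a large difference. ZIP2 sits in the plasma membrane and has been linked to the transfer of manganese and zinc in the root stele. Its probe lies at chr5:24008678-24008737 on the minus strand. The level of ZIP2 was 10.14, 10.23 and 10.61 in tdt-1, against 11.79, 11.85 and 11.95 in wild type. The groups did not overlap, and each genotype varied by less than the gap between them. The ratios were −1.65, −1.62 and −1.34, with a mean of −1.54 ± 0.17, so the ZIP2 level was 2.90-fold higher in wild type with loess. The fold was 2.37 with median centring, where the ratios were −1.01, −1.09 and −1.63, and 3.07 with the scanner's log ratio. Among the 20484 tested loci, ranked by mean ratio starting with the lowest, ZIP2 took place 146.

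With the loess ratios ZIP11, ZIP5 and ZIP4 were slightly higher in tdt-1 on every array. ZIP11 (AT1G55910; probe at chr1:20910971-20911030, plus strand) restores zinc uptake when expressed in yeast. Its level was 10.12, 10.22 and 9.66 in tdt-1, against 9.81, 9.77 and 9.25 in wild type, and its mean ratio of 0.39 ± 0.07 had the smallest SD of the 9 genes. The levels of ZIP11 overlapped between genotypes when pooled over arrays, since both were lower on replicate 3. ZIP5 (AT1G05300; probe at chr1:1545258-1545317, minus strand) is among the genes induced by zinc shortage. The level of ZIP5 was 9.93, 10.05 and 9.79 in tdt-1, against 9.48, 9.67 and 9.58 in wild type. Its groups did not overlap, and its mean ratio was 0.35 ± 0.12.

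ZIP4 (AT1G10970; probe at chr1:3665239-3665298, minus strand) is a widely used marker of zinc shortage in roots and shoots. Its level was 10.02, 9.95 and 10.17 in tdt-1, against 9.67, 9.59 and 9.98 in wild type. The groups overlapped slightly, since wild type on replicate 3 was above tdt-1 on replicate 2. The ratios of ZIP4 were 0.35, 0.36 and 0.20, with a mean of 0.30 ± 0.09. When each array was only centred on its median, the replicate 3 ratio of ZIP4 was −0.06 and that of ZIP5 was −0.03, so the positive sign on that array depends on the normalisation, whereas ZIP11 stayed at 0.16 there. On replicates 1 and 2 the same setting gave 0.83 and 0.74 for ZIP4, 0.90 and 0.78 for ZIP5, and 0.82 and 0.87 for ZIP11. The size of these differences thus depends on the normalisation too, and the SD of ZIP11 was 0.40 with it.

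ZIP1, ZIP3 and ZIP9 did not keep 1 sign over the arrays. ZIP3 (AT2G32270; probe at chr2:13713585-13713644, plus strand) restores zinc uptake in yeast and is induced in zinc-deprived roots. Its level was 8.23, 8.28 and 9.53 in tdt-1, against 8.98, 8.89 and 9.16 in wild type. tdt-1 was the lower genotype on replicates 1 and 2 and the higher one on replicate 3. The ratios of ZIP3 were −0.75, −0.61 and 0.37, with a mean of −0.33 ± 0.61, and the groups overlapped.

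ZIP9 (AT4G33020; probe at chr4:15932684-15932743, minus strand) is another gene of the zinc shortage response. Its level was 7.62, 7.76 and 8.37 in tdt-1, against 7.54, 7.92 and 7.87 in wild type. The genotypes overlapped, and tdt-1 stood clearly above wild type on replicate 3 alone. The ratios of ZIP9 were 0.08, −0.15 and 0.51, with a mean of 0.14 ± 0.33. ZIP1 (AT3G12750; probe at chr3:4052014-4052073, minus strand) encodes a transporter placed in the vacuolar membrane, with a role in releasing manganese. Its level was 8.43, 8.54 and 8.36 in tdt-1, against 8.58, 8.45 and 8.09 in wild type. The ratios of ZIP1 were −0.16, 0.09 and 0.28, a spread that includes 0, with a mean of 0.07 ± 0.22.

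ZIP10 (AT1G31260; probe at chr1:11175580-11175639, minus strand), which also belongs to the zinc shortage response, was near the limit of detection. For tdt-1 the spot passed the software's brightness call on 0 of 3 arrays, and for wild type on 2 of 3. The measured level was 6.21, 6.17 and 5.96 in tdt-1, against 6.61, 6.61 and 5.95 in wild type. The values coincided on replicate 3. No fold is given, since tdt-1 was below the call on every array and wild type on replicate 3.

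**Figure D1:**
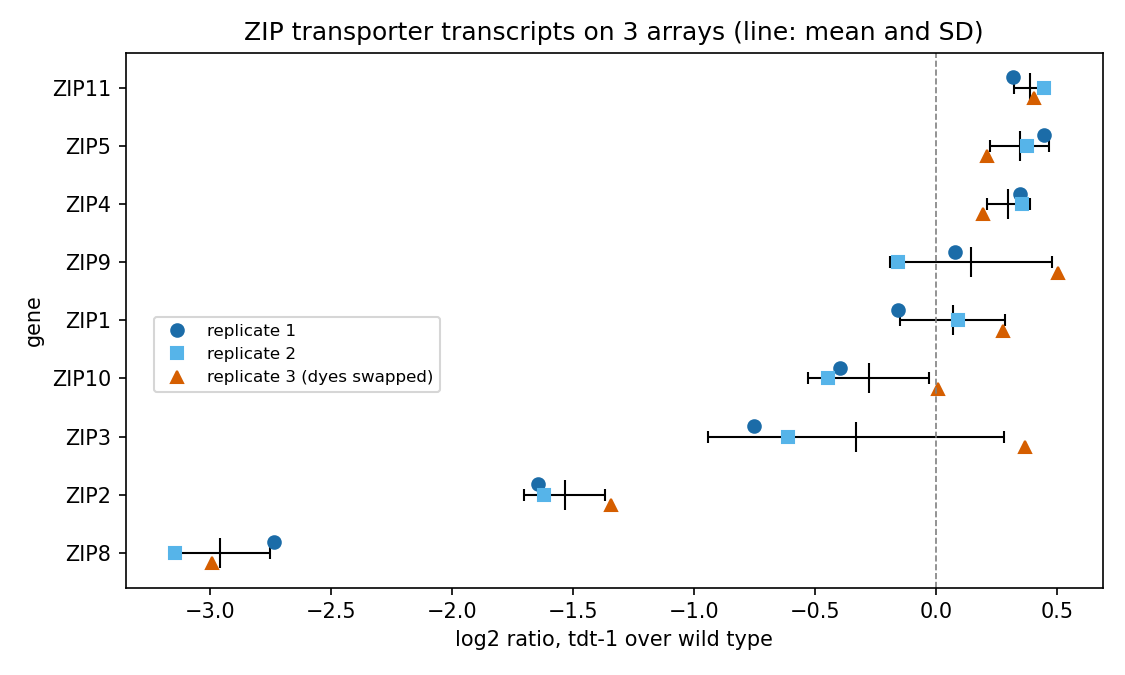
The log2 ratio of tdt-1 over wild type is plotted for each of the 9 ZIP genes, with a marker per array and the mean ± SD over 3 arrays. ZIP8 and ZIP2 lie below −1 on every array, ZIP4, ZIP5 and ZIP11 lie just above 0 on every array, and the replicate 3 marker of ZIP3 lies on the other side of 0.

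**Figure D2:**
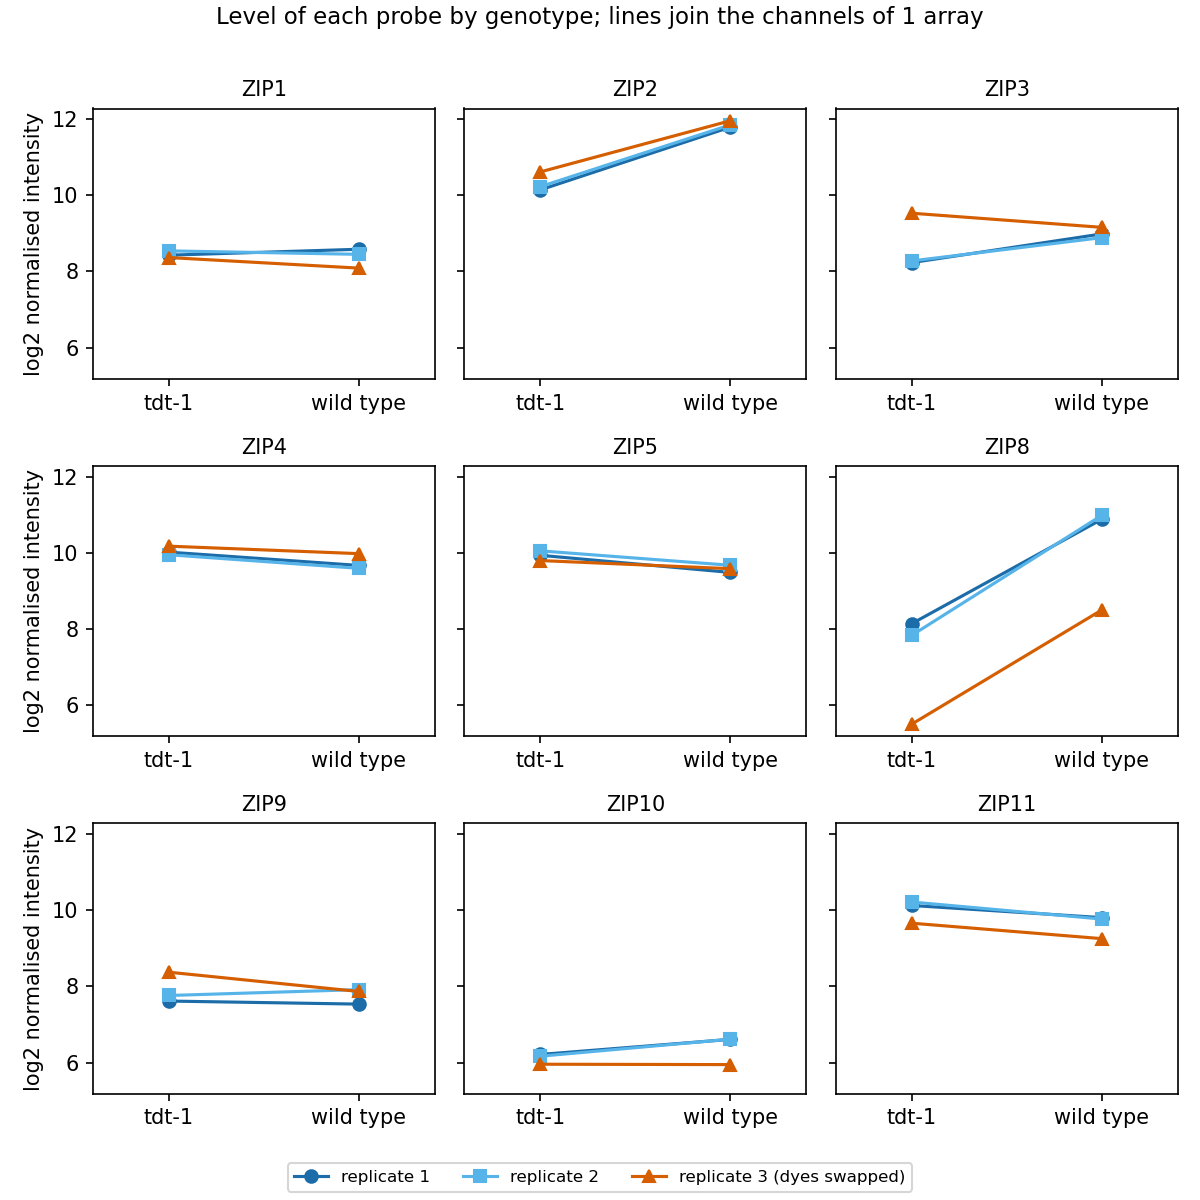
The log2 normalised intensity of each ZIP gene is plotted per array, with tdt-1 left of wild type and a line joining the 2 channels of 1 array. The lines of ZIP8 and ZIP2 run upward to wild type on all 3 arrays, and those of ZIP8 start lower on replicate 3.

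As a description, ZIP8 and ZIP2, 2 of the 8 ZIP genes in limma's fit, were among the loci past an adjusted p of 0.05, and both were lower in tdt-1. ZIP8 entered that fit through its wild-type signal. Over all tested loci 5.97% passed as lower, 7.36% as higher and 13.3% in either direction. Since the ratios of the ZIP genes were known when they were chosen, their count is set beside these shares and nothing is read from it. Also as a description only, the ZIP8 call was kept and the ZIP2 call was lost without replicate 1 or replicate 2, and both were lost under median centring. Over all tested loci, 115 passed as higher and 82 as lower without replicate 1, and 66 and 45 without replicate 2. Median centring left 1 and 0. Nothing is read from a ZIP call kept or lost. Of the 8 genes, 2 were negative on every array, 3 were positive on every array and 3 had mixed signs. Of all tested loci, 27.5% were negative and 31.4% positive on every array. The median mean ratio of the 8 ZIP genes was 0.11, against 0.02 over all tested loci, so the ZIP8 and ZIP2 values were not shared by the other members.

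Replicate 3 stood apart from the other arrays over many loci. A term for it in limma, which sets 1 array against 2 that resemble each other and leaves 1 residual degree of freedom per gene, passed for 44.6% of all tested loci. The per-array ratios of the ZIP genes were known when they were chosen, so their differences are given without a test. With loess, replicate 3 minus the mean of replicates 1 and 2 was 1.05 on the log2 scale for ZIP3, 0.54 for ZIP9 and 0.29 for ZIP2. With median centring the ZIP2 ratio was instead lowest on replicate 3. For ZIP8 it was −0.05 with loess, but its scanner log ratio of −7.05 on replicate 3 lay far below the −3.70 and −4.07 of replicates 1 and 2. The part of dye, layout, scan day, scan resolution and software version in the ZIP3 and ZIP9 differences was not tested.

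**Figure D3:**
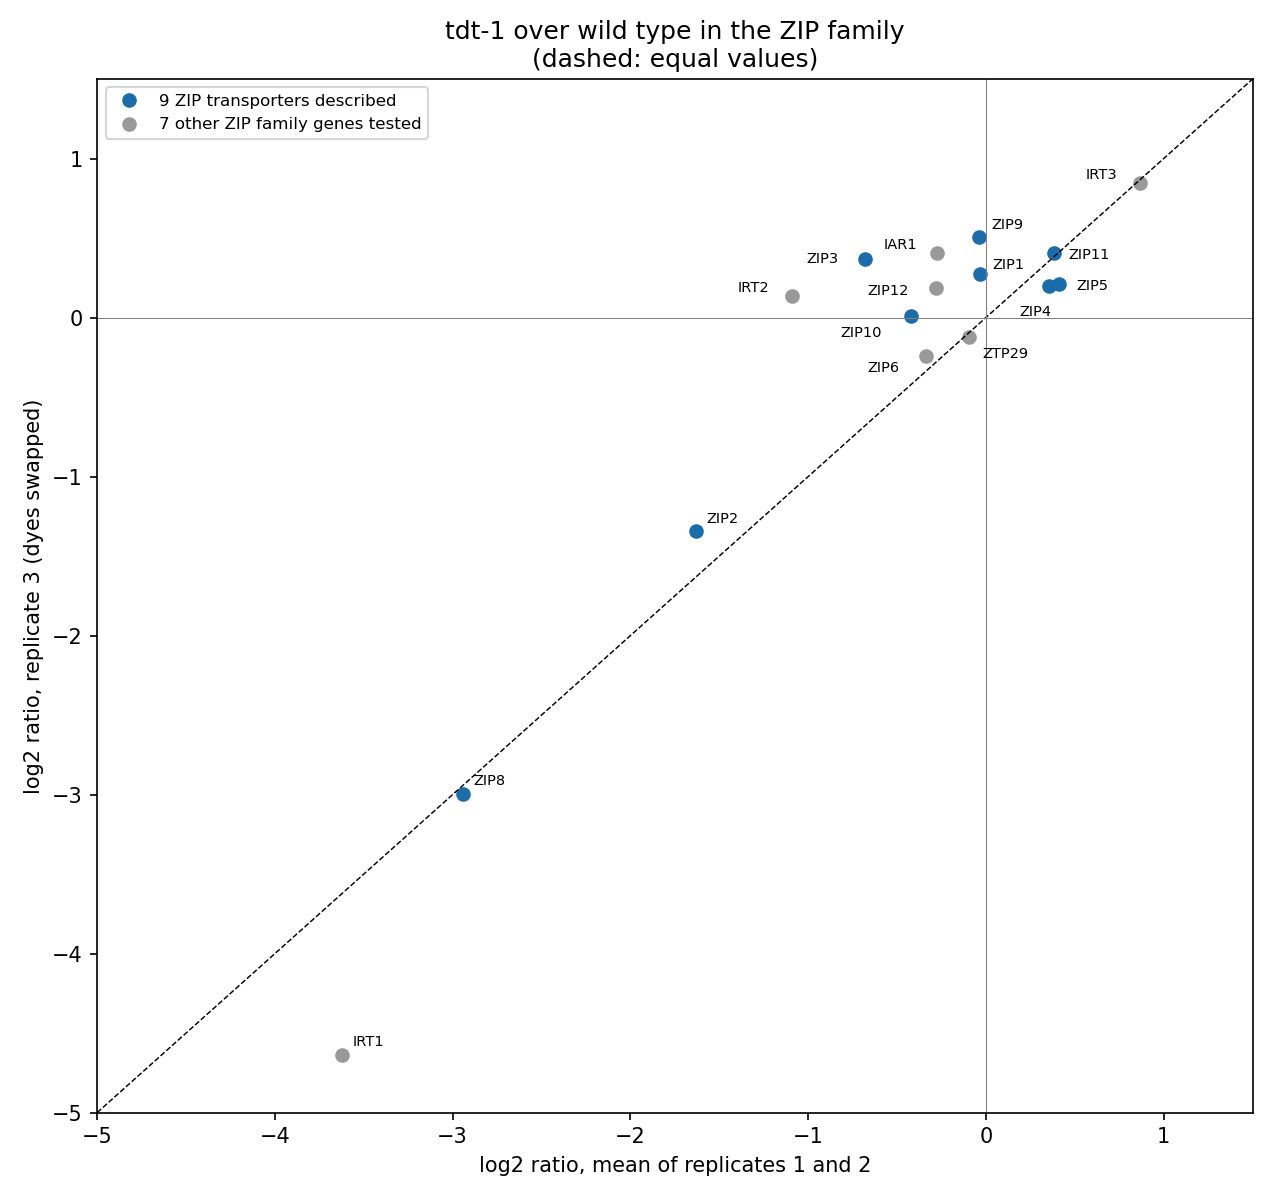
The log2 ratio of tdt-1 over wild type on replicate 3 (vertical) is plotted against the mean of replicates 1 and 2 (horizontal) for the 9 ZIP genes and for 7 further genes of the family, with a dashed line of equal values. ZIP8 and ZIP2 lie near the line, and ZIP3 lies above it on the other side of 0.

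Among the rest of the ZIP family, 7 of 8 genes were tested, and 1 rose, 1 fell and 5 did not pass. The list counts, here and below, stand beside 7.36% of all tested loci passing as higher and 5.97% as lower. IRT3, a zinc and iron transporter under bZIP19 and bZIP23, had a level of 11.16, 11.25 and 11.33 in tdt-1, against 10.20, 10.48 and 10.49 in wild type. It rose by a log2 ratio of 0.86 ± 0.10 (limma adjusted p = 0.0205), with no overlap between the genotypes. IRT1, the iron transporter of the root epidermis, fell to 9.11, 8.83 and 6.76 in tdt-1, against 12.79, 12.39 and 11.40 in wild type. Its ratio was −3.96 ± 0.59 (limma adjusted p = 0.0149). With both of its probes averaged the IRT1 ratio was −2.85, so whether IRT1 or ZIP8 lay lower depends on the probe rule, and also on the log ratio used.

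The genes of bZIP19 and bZIP23, regulators of the zinc shortage response, did not pass, nor did BZIP24, which was listed with them. All 3 bZIP genes listed were tested, and BZIP23 had the smallest p, with a ratio of 0.25 ± 0.07 (limma adjusted p = 0.130) that was positive on every array. Without replicate 3 it passed (limma adjusted p = 0.0266), but there 7002 of the 20484 loci passed as higher and 5463 as lower. Without replicate 1 or replicate 2 it did not pass (limma adjusted p = 0.498 and 0.592), where 115 and 66 loci passed as higher.

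Of the zinc export and vacuolar storage genes, 12 of 13 were tested, 0 rose and 2 fell. MTP3, which loads zinc into vacuoles of the outer root cell layers, fell to 7.86, 7.76 and 6.92 in tdt-1, against 9.74, 9.68 and 9.67 in wild type. Its ratio was −2.18 ± 0.50 (limma adjusted p = 0.0195). PCR2, a plasma membrane protein of zinc efflux and root to shoot transfer, fell by 0.79 ± 0.04 on the log2 scale (limma adjusted p = 0.0206). Both were lower in tdt-1 on each of the 3 arrays.

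All 9 manganese transport genes were tested, and 1 fell. NRAMP1, the high-affinity manganese importer of the root, had ratios of −0.86, −1.08 and −0.67, with a mean of −0.87 ± 0.20 (limma adjusted p = 0.0268).

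All 10 chelator genes were tested, of which 1 rose and 2 fell. The genes that fell encode nicotianamine synthases. NAS1 had a level of 10.26, 10.26 and 10.44 in tdt-1, against 11.78, 11.82 and 11.85 in wild type, a ratio of −1.50 ± 0.08 (limma adjusted p = 0.0147). NAS2, which is also a bZIP19 and bZIP23 target, had a ratio of −1.37 ± 0.22 (limma adjusted p = 0.018). MT2A, a metallothionein that binds copper and zinc, rose by 1.55 ± 0.73 on the log2 scale (limma adjusted p = 0.0479), with the smallest of its 3 ratios, 0.71, on replicate 3.

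Over these 5 lists together, 41 of 43 genes were tested, 2 passed as higher and 6 as lower, and 33 did not pass, where 7.36% of all tested loci passed as higher and 5.97% as lower. The lists were drawn up with results of these data known, and their counts are therefore no independent support. Their median ratio was −0.10, against 0.02 over all tested loci. Without replicate 1 the calls were 0 higher and 3 lower (MTP3, IRT1 and NAS1), where 115 and 82 of the 20484 loci passed. Without replicate 2 they were 0 higher and 2 lower (MTP3 and IRT1), where 66 and 45 loci passed. Without replicate 3 they were 10 higher and 15 lower, where 7002 and 5463 loci passed. The calls of IRT3, MT2A, PCR2, NRAMP1 and NAS2 were thus lost without replicate 1 and again without replicate 2, as were most calls over all loci. When each array was only centred on its median, 0 of the 41 genes passed limma's test, where 1 of all tested loci passed as higher and 0 as lower. With that setting 9 of the list genes had an unadjusted p under 0.05, as did 3635 of all tested loci.

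**Figure D4:**
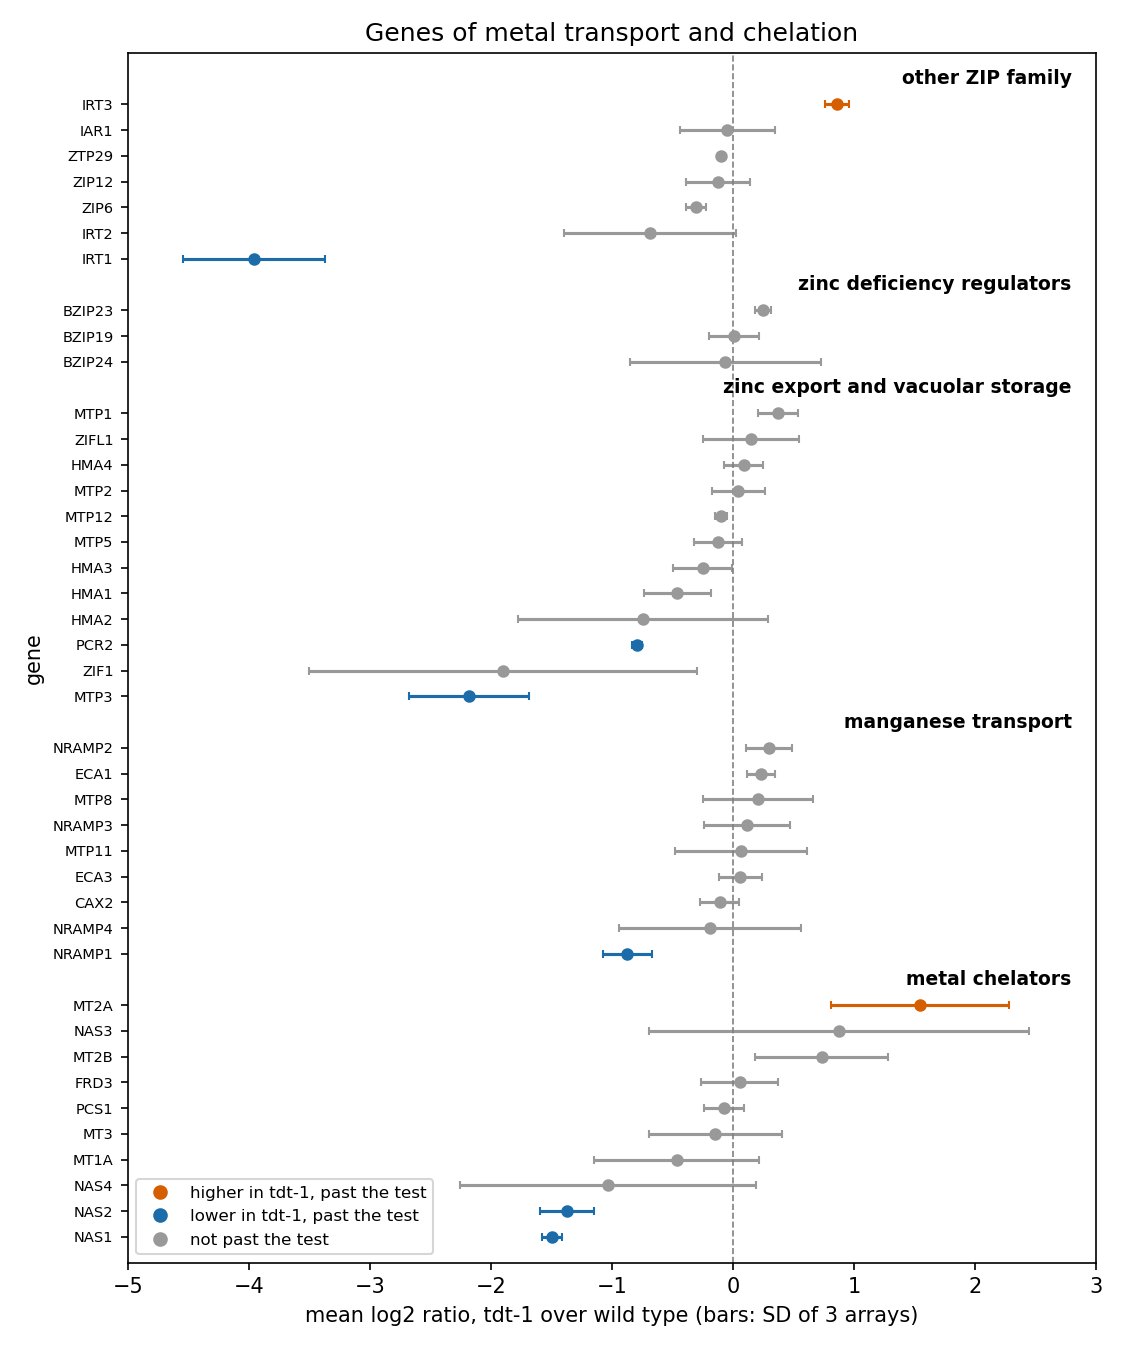
The mean log2 ratio of tdt-1 over wild type, with the SD over 3 arrays, is plotted for the tested genes of the 5 metal homeostasis lists, with orange for genes past limma's test and higher in tdt-1, blue for those past it and lower, and grey for the rest. IRT1, MTP3, NAS1, NAS2, NRAMP1 and PCR2 passed below 0, and IRT3 and MT2A passed above it.

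Many ZIP and metal genes act in roots, so markers of root and of green tissue were read beside them. All 14 root markers were tested, and 1 passed as higher and 0 as lower, where 7.36% and 5.97% of all tested loci did. The marker that passed was CASP1 of the Casparian strip, at 0.69 ± 0.14 (limma adjusted p = 0.0295). That call was lost without replicate 1 (0.128) or replicate 2 (0.220), where 115 and 66 loci passed as higher. Of the 14 root markers, 8 had a mean ratio below 0 and 6 above it. The ratio was negative for 10 of them on replicate 1, 10 on replicate 2 and 5 on replicate 3. The median root marker ratio was −0.11, −0.17 and 0.16 on replicates 1, 2 and 3. The summed level of the root markers, in linear normalised intensity, was 8623, 9666 and 12233 in tdt-1, against 9399, 9957 and 9052 in wild type, so the genotypes overlapped.

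None of the 8 green tissue markers, all of them tested, passed limma's test, where 13.3% of all tested loci passed in either direction. The 5 green markers with no saturated spot were lower in tdt-1 on every array, as were 27.5% of all tested loci. LHCB3, a light-harvesting protein, had the smallest p, with a ratio of −1.39 ± 0.90 (limma adjusted p = 0.0794). RBCS1A, RCA and LHCA1 were saturated in tdt-1 on replicates 1 and 2 and in wild type on all 3 arrays, so their ratios are not determined. That these 3 did not pass is therefore not read as a result. The summed level of all 8 was 553377, 524279 and 164532 in tdt-1, against 673017, 687237 and 869572 in wild type, with those saturated spots included. The 5 green markers with no saturated spot, picked out after the data were seen, summed to 267562, 259694 and 69965 in tdt-1, against 339565, 346970 and 367284 in wild type. Their median ratio was −0.46, −0.52 and −2.43 on replicates 1, 2 and 3. The part of the green markers in the ZIP ratios was not tested.

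Genes beside ZIP8 and ZIP2 on the chromosome, which were looked up after the ZIP values were known, stood closer to 0. BRG1 and NPR3 flank ZIP8 and stood at 0.02 ± 0.11 (limma adjusted p = 0.896) and −0.17 ± 0.46 (limma adjusted p = 0.582). RTFL5 and AT5G59530 flank ZIP2 and stood at 0.31 ± 0.33 (limma adjusted p = 0.241) and −0.51 ± 0.48 (limma adjusted p = 0.171).

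The tested loci with the ratios most like those of ZIP8, by Euclidean distance over the loess ratios of the 3 arrays, replicate 3 included, were MLP34, a major latex protein-like gene, at a distance of 0.40, IMD1 at 0.54 and IMS2 at 0.57. IMD1 encodes an isopropylmalate dehydrogenase, and the array annotates IMS2 as an isopropylmalate synthase. The ratios of MLP34 were −2.70, −2.86 and −2.72. The replicate 3 ratio of ZIP8 behind these distances was taken against a tdt-1 spot that was not well above background. By the scanner's log ratio ZIP8 stood at −3.70, −4.07 and −7.05, and distances on that scale were not taken. Nearest to ZIP11 were SLAH2, which encodes an anion channel, at a distance of 0.028, NRPB6A, which encodes an RNA polymerase subunit, at 0.031, and AT3G06660 at 0.032. The ratios of SLAH2 were 0.31, 0.44 and 0.38.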

How the data were processed

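Spot intensities on a linear scale, as deposited by the authors, are mean pixel values and median local backgrounds per channel. Per the file headers, the scans of replicates 1 and 2 were read with Agilent Feature Extraction 8.5.1.1, and that of replicate 3 with 9.1.3.1. The deposited files also hold the software's log10 ratio of Cy5 over Cy3 and flags, scored 0 or 1, that mark saturated spots, non-uniform spots and those well above background. The deposited series table holds log2 ratios with tdt-1 on top, which had a slope of 1 against the scanner log ratios and a median of 0 on each array. Its values were used as an alternative.

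In limma 3.58.1 (R 4.3.3) background was corrected with normexp at an offset of 50 and loess, with weight 0 for control spots, normalised the ratios within arrays. Replicate 3 then had its sign turned. Non-uniform spots (16, 11 and 81 on replicates 1, 2 and 3) and control spots were dropped, and a probe's spots were averaged. Levels per channel came from limma's Aquantile step. A locus was tested where either genotype was well above background on all 3 arrays, with the brightest probe standing for it. The multiplier behind that flag was 2.6 on replicates 1 and 2 and 13 on replicate 3, per the file headers. Ratios were tested against 0 with lmFit and eBayes, and p-values were adjusted by Benjamini-Hochberg over 20484 loci. The fitting step was run on simulated arrays with known changes, drawn independently with the spread that limma had estimated. Since replicates 1 and 2 resembled each other more than replicate 3, that run checks the code and not the calls.

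The ZIP genes and the lists were chosen with earlier results of these data known. The text names all 9 ZIP genes, the members of each list past the test (at most the 6 with the smallest p, or the 1 with the smallest p where none passed), and the 3 loci nearest to the lowest and to the highest ZIP gene. Symbols follow the reference table (assembly TAIR10.1), except MTP3, listed there as MTPA2. Probe positions are those of the deposited files, which name no genome build. Exon or UTR position and cross-hybridisation between family members were not analysed here. The alternatives covered background correction, normalisation, the series table, the dim-probe filter, the probe rule, a dye term, array weights, the variance model, averaging replicates 1 and 2, and leaving out each array. Green markers without saturated spots were added after seeing the data.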

Additional observations from a re-analysis of the deposited data

How the results depend on the processing

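No ZIP or named list gene with a call changed direction under the alternatives run. ZIP1 was at −0.03 without replicate 3, and ZIP9 was negative with array weights (−0.11) and without replicate 3. The counts of calls did move. Of 1508 higher and 1222 lower loci, median centring left 1 and 0, averaging replicates 1 and 2 left 24 and 19, the dye term gave 6941 and 6260, and array weights gave 8170 and 6710. Leaving out an array gave 66 to 7002 higher and 45 to 5463 lower, the large values without replicate 3. ZIP genes lower in tdt-1 numbered 2; median centring left 0 (3 ZIP genes, 9 list genes and 3635 loci had an unadjusted p under 0.05), requiring both genotypes above background left 1, since ZIP8 was not tested, averaging left 1 (ZIP8), array weights gave 3, and leaving out an array gave 1 to 3, with ZIP8 kept each time and ZIP2 lost without replicate 1 or 2. ZIP genes higher numbered 0, against 4 with the dye term, 3 with array weights and 0 to 3 without an array (ZIP4, ZIP5 and ZIP11 without replicate 3). Higher metal genes numbered 2, against 1 without background correction, without the dim-probe filter or with a variance trend (MT2A was lost), 0 with median centring or averaging, 10 with the dye term, 12 with array weights and 0 to 10 without an array. Lower metal genes numbered 6, against 0 with median centring, 1 with averaging (IRT1), 17 with the dye term, 16 with array weights and 2 to 15 without an array. The cause of these moves was not tested. The ZIP calls, kept or lost, are a description only, since the ratios of the ZIP genes were known when they were chosen.

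The array weights (1.27, 7.40 and 0.106) came from an estimate that stopped before its tolerance was met. Scan day as a random block gave an estimate for 0 genes. The main fit was itself paired by array, since it tested the within-array ratio of tdt-1 over wild type against 0. The 3 arrays form 1 group, so no further pairing was made.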
